A study of Mus musculus with 34 samples.

Results

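NF-kB is a family of dimeric transcription factors that wait in the cytoplasm, bound by inhibitors of the IkB family, until a stimulus leads a kinase complex to mark the inhibitors for degradation. Freed dimers enter the nucleus, and among the genes they switch on are their own inhibitors, a classical negative feedback loop. In the hippocampus the pathway is active in neurons as well as in glia and has been studied in synaptic plasticity and memory. The 10 genes described here are 5 inhibitors (*Nfkbia*, *Nfkbib*, *Nfkbie*, *Nfkbiz* and *Tnfaip3*) and the 5 subunits (*Nfkb1*, *Nfkb2*, *Rel*, *Rela* and *Relb*). They were taken by their GENCODE mouse symbols from a bulk RNA-seq table of 54532 genes, and all 10 were found and passed the filter on low counts.

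Bulk RNA-seq was performed on dorsal hippocampus of adult male C57BL/6J mice, which the study's methods give as 2 to 3 months old. In the SOR group (n = 4), mice were trained in spatial object recognition, in which they explore an open field with objects at fixed places. The study describes tissue taken 1 h after learning. Homecage mice (n = 4) were not trained. The methods describe animals as housed singly and handled before training, without limiting this to a group. The labels name no transgene, drug or other treatment in either group. Libraries held between 51406011 and 81525977 estimated counts, and 22018 genes were tested. Hippocampal neuron markers were well detected, with 2574 to 2900 summed CPM (counts scaled to library size) over 12 genes in homecage and 2669 to 2864 in SOR mice, and none of the 12 passed the test. In whole tissue, fewer cells of a type and less RNA per cell cannot be told apart.

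Among the 10 genes, *Nfkbia* alone was upregulated after SOR training. *Nfkbia*, which encodes the prototype inhibitor IkB alpha, rose 1.74-fold, while the other 4 inhibitors and all 5 subunits did not pass the test. The number past the threshold was 1 of 5 inhibitors and 0 of 5 subunits (edgeR's quasi-likelihood test, adjusted p under 0.05 over all genes tested), beside 0.309% of all genes tested. At an unadjusted p under 0.05 the counts were 2 inhibitors, *Nfkbia* and *Tnfaip3*, and 0 subunits, beside 10.1% of all genes. DESeq2 and limma-voom likewise passed 1 of the 10, beside 435 and 63 of all 22018 genes tested.

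The members' start sites were compared for the sequence that NF-kB dimers bind, because feedback through this sequence is known for several NF-kB genes. RefSeq promoter windows, from 250 bases before to 50 after a start site, were at hand for 7 of the 10 genes and not for *Nfkbiz*, *Nfkb1* and *Relb*. The kappa-B consensus, a motif of 10 letters, was searched on both strands. It had a match in the windows of 5 of these 7 genes (*Nfkbia*, *Nfkbie*, *Tnfaip3*, *Nfkb2* and *Rel*). The share was 5.14% among all 27025 genes with such windows. No window of *Nfkbib* or *Rela* held one. The cAMP response element TGACGTCA, searched on both strands, and the CArG box bound by serum response factor were found in no window of the 7 genes. Their shares were 2.03% and 1.81% among all genes with such windows. The 250 bases before the start are shown for the inhibitor that rose, for the inhibitor with the next largest fold change and for a subunit without a match, 5′ to 3′ on the gene's own strand, with kappa-B matches in capitals.
Nfkbia, chr12:55492648-55492897 of GRCm38.p6, minus strand: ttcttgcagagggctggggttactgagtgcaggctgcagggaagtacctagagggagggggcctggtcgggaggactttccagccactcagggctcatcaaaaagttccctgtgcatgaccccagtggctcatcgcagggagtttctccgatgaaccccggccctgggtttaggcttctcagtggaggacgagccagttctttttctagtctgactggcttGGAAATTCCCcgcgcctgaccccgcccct
Tnfaip3, chr10:19015411-19015660 of GRCm38.p6, minus strand: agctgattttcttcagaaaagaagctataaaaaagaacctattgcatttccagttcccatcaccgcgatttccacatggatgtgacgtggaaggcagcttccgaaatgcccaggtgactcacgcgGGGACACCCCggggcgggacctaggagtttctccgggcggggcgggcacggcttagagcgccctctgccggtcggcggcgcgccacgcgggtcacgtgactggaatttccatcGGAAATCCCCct
Rela, chr19:5637291-5637540 of GRCm38.p6, plus strand: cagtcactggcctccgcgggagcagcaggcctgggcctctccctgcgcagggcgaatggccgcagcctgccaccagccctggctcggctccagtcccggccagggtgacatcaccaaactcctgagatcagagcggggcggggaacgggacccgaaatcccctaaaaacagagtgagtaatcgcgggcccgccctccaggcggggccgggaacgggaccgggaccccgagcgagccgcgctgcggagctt
The *Nfkbia* match covers bases -29 to -20 from the start. *Tnfaip3* has its matches at -125 to -116 and at -12 to -3 of one start site, and the window of its other annotated start has none. For the members that did not pass the test but hold a match, the matched letters are given here on the gene's strand. The *Rel* site and the first *Nfkb2* site match on both strands, and each overlaps a further match that starts 1 base further on. The *Nfkb2* sites come from the windows of 3 start sites.
Nfkbie, chr17:45555594-45555603: GGGGGATTCC
Rel, chr11:23771052-23771061: GGGAAATCCC
Nfkb2, chr19:46304698-46304707: GGGAATTCCC
Nfkb2, chr19:46304726-46304735: GGGGCTTTCC
Nfkb2, chr19:46305459-46305468: GGAATGTCCC
Nfkb2, chr19:46305705-46305714: GGGACTTTCC
A match describes letters in the window and not binding, and genes with a match were found both among those that passed the test (*Nfkbia*) and among those that did not (*Nfkbie*, *Tnfaip3*, *Nfkb2* and *Rel*).

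*Nfkbia* (ENSMUSG00000021025) lies on the minus strand of chromosome 12 of GRCm38, from 55489410 to 55492647. Homecage mice held 11.2, 10.8, 10.5 and 11.5 CPM in replicates 1 to 4, and SOR mice held 21.8, 18.3, 17.4 and 19.0 CPM. Every SOR mouse was above every homecage mouse, with the lowest SOR value well clear of the highest homecage value. The log2 fold change was 0.80 (standard error 0.0816, 95% interval 0.62 to 0.98, adjusted p = 0.00239 in the quasi-likelihood test of edgeR), and the gene ranked 12 by p among those tested. Groups that do not overlap were seen for 6.94% of all genes tested (2.98% higher and 3.96% lower in SOR mice) and for 1 of the 10 genes described here (exact two-sided permutation test for *Nfkbia*, p = 0.0286, the smallest that 4 against 4 allow). The gene passed in each of 13 alternatives with all samples and in each of 8 fits that left out 1 sample. It did not pass a stricter test of whether the fold change exceeds 1.4, for which the adjusted p was 0.454. Its estimated fold change was above 1.4. Of all 22018 genes tested, 0.309% had an adjusted p under 0.05. Those that also changed more than 1.4-fold in either direction made up 0.173% of all genes tested.

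**Figure D1:**
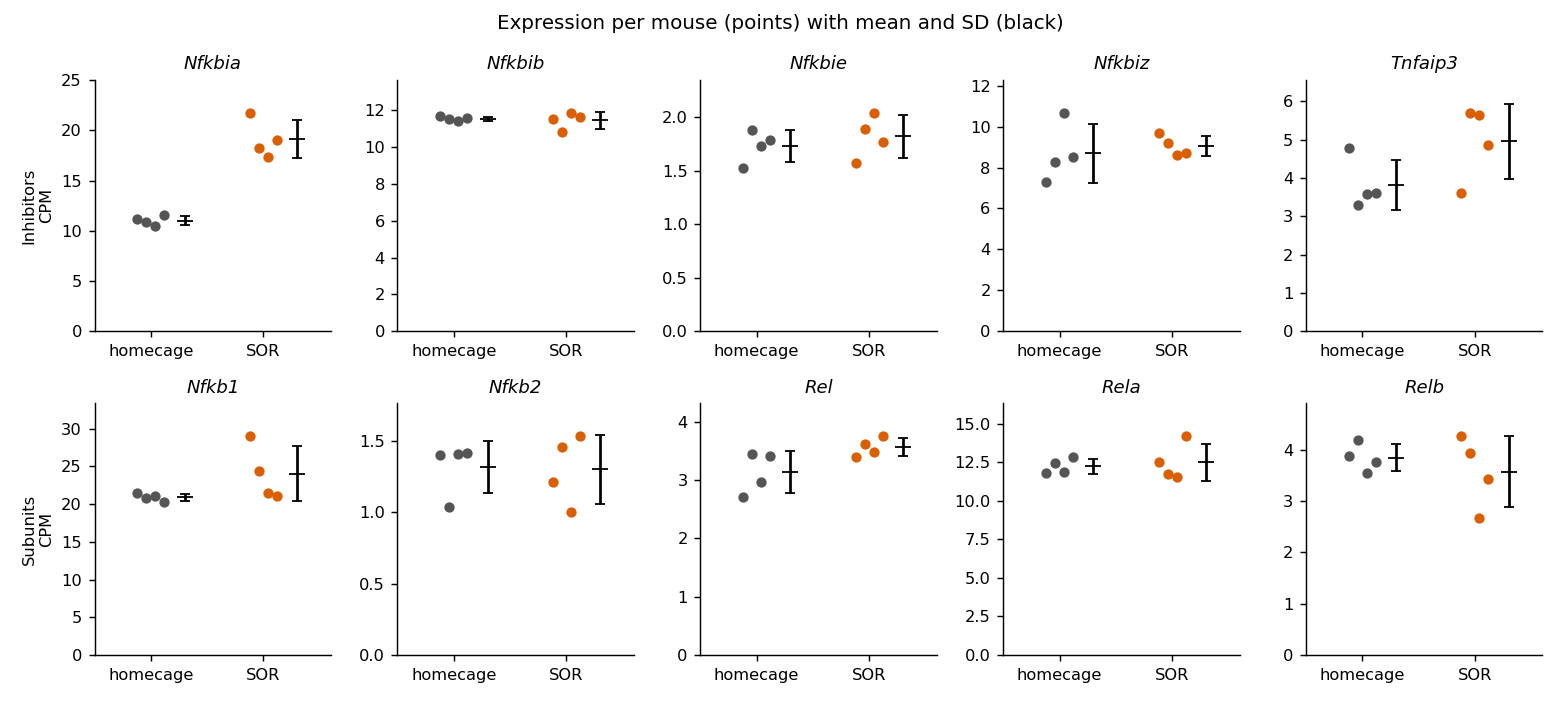
Expression in CPM (linear axes from 0) of the 5 inhibitors (upper row) and the 5 subunits (lower row) in homecage (grey) and SOR mice (orange); points are mice and black bars are the mean with SD, n = 4 per group. The 2 groups are apart for *Nfkbia*, from 10.5 to 11.5 CPM in homecage and from 17.4 to 21.8 CPM in SOR mice, and overlap in every other panel.

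The other 2 inhibitors of the classical IkB type did not pass the test. *Nfkbib*, which encodes IkB beta, had 11.7, 11.5, 11.4 and 11.5 CPM in homecage and 11.5, 10.8, 11.9 and 11.6 CPM in SOR mice. SOR replicate 3 was above and replicate 2 below the narrow homecage range, the other 2 were inside it, and the fold change was 0.993 with a 95% interval of 0.896 to 1.10 (adjusted p = 0.977 from the edgeR test). The interval of *Nfkbia* began at 1.53-fold. *Nfkbie*, which encodes IkB epsilon, was scarcer, with 1.53, 1.88, 1.73 and 1.78 CPM in homecage and 1.57, 1.89, 2.04 and 1.77 CPM in SOR mice. Its groups overlapped, and its fold change was 1.05 (95% interval 0.853 to 1.29, adjusted p = 0.908). Up to 314 exon bases of *Nfkbib* are shared with *Ccer2* and 42 with *Sirt2*, both on the opposite strand. The kit named in the methods keeps strand, but whether strand entered the counting is not given in the sources used here.

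*Nfkbiz* encodes an atypical IkB protein that acts in the nucleus and is itself an inducible gene in inflammation. It had 7.30, 8.27, 10.7 and 8.51 CPM in homecage mice and 9.70, 9.22, 8.63 and 8.72 CPM in SOR mice. All 4 SOR values lay inside the homecage range, and the log2 fold change was 0.062 (95% interval -0.19 to 0.32, adjusted p = 0.904 from the edgeR test). *Tnfaip3* encodes a ubiquitin-editing enzyme that switches off signalling upstream of the kinase complex. Homecage mice had 4.78, 3.30, 3.59 and 3.60 CPM, and SOR mice had 3.62, 5.71, 5.64 and 4.87 CPM. Replicates 2, 3 and 4 of the SOR group were above every homecage mouse, and SOR replicate 1 was within the homecage range. The log2 fold change of *Tnfaip3* was 0.38 (95% interval 0.0056 to 0.75, unadjusted p = 0.0472, adjusted p = 0.49 from the edgeR test). With all samples its adjusted p lay between 0.073 and 0.634 over the 13 alternatives, and without SOR replicate 1 its log2 fold change was 0.50 (adjusted p = 0.281).

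**Figure D2:**
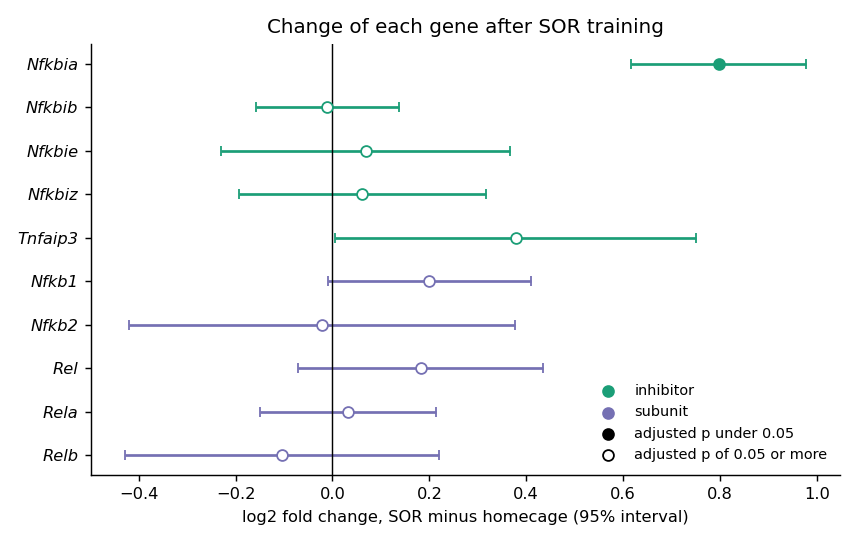
Log2 fold change of SOR minus homecage for each inhibitor (green) and subunit (purple) from the edgeR fit, with 95% intervals; a filled point marks an adjusted p under 0.05. *Nfkbia* lies at 0.80 with an interval from 0.62 to 0.98, and the other 9 genes lie between -0.10 and 0.38.

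Of the subunits, *Rela* and *Nfkb1* encode the partners of the most studied NF-kB dimer, and *Nfkb1* codes for a precursor whose uncleaved form also acts as an IkB. *Rela* had 11.8, 12.5, 11.9 and 12.8 CPM in homecage and 12.5, 11.8, 11.6 and 14.2 CPM in SOR mice. SOR values lay inside, above and below the homecage range, and the fold change was 1.02 with a 95% interval of 0.901 to 1.16 (adjusted p = 0.936 from the edgeR test). *Nfkb1* had 21.5, 20.9, 21.02 and 20.3 CPM in homecage mice, a narrow range, and 29.0, 24.5, 21.5 and 21.1 CPM in SOR mice. SOR replicates 1 and 2 were above every homecage mouse, replicate 3 was just below the highest of them, and replicate 4 was inside their range. Its log2 fold change was 0.20 (95% interval -0.010 to 0.41, unadjusted p = 0.0601, adjusted p = 0.517 from the edgeR test) and was 0.094 without SOR replicate 1. That library also stood apart in 8 choroid plexus markers, with 4038 summed CPM against 41.7 to 893 in the other SOR and 25.2 to 1108 in the homecage libraries. The part of this tissue in the *Nfkb1* value was not tested. *Nfkbia* had a log2 fold change of 0.73 without that library (adjusted p = 0.00252 from the edgeR test).

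*Rel* and *Relb* encode the remaining subunits with a transactivation domain. *Rel* had 2.71, 3.45, 2.96 and 3.41 CPM in homecage and 3.40, 3.62, 3.49 and 3.75 CPM in SOR mice. SOR replicates 2, 3 and 4 were above all homecage mice, and replicate 1 was just inside their range. The log2 fold change of *Rel* was 0.18 (95% interval -0.071 to 0.44, adjusted p = 0.642 from the edgeR test). *Relb*, a subunit of the noncanonical pathway, had 3.89, 4.18, 3.55 and 3.75 CPM in homecage and 4.26, 3.93, 2.67 and 3.44 CPM in SOR mice, with a log2 fold change of -0.10 (95% interval -0.43 to 0.22, adjusted p = 0.864). Its SOR values spread to both sides of the homecage range. *Nfkb2*, whose product is the precursor partner of the *Relb* protein, had 1.399, 1.04, 1.41 and 1.42 CPM in homecage and 1.21, 1.46, 0.998 and 1.53 CPM in SOR mice. The log2 fold change was -0.022 (95% interval -0.42 to 0.38, adjusted p = 0.983), and as a fold change the interval ran from 0.747 to 1.30. The SOR values reached above and below those of the homecage mice. *Nfkb2* shares 299 exon bases with *Psd* and 531 with the long noncoding RNA *AC114539.1*, both on the opposite strand, which limits how its level can be read.

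Inhibitors and subunits were then compared as classes. The median log2 fold change was 0.069 for the 5 inhibitors and 0.032 for the 5 subunits, a difference of 0.037. Without *Nfkbia*, the other 4 inhibitors had a median of 0.065. Over all genes tested the median was -0.019, and 43.8% were higher in SOR mice, beside 7 of the 10 genes described here (4 inhibitors and 3 subunits). Taken per mouse relative to the homecage means, the median inhibitor minus the median subunit ranged from -0.067 to 0.031 in homecage and from -0.18 to 0.32 in SOR mice on the log2 scale, and the SOR values lay on both sides of the homecage values. The medians of the classes thus differed by less than the spread between mice. The difference also moved with single samples: it was 0.072 without homecage replicate 2, 0.16 without homecage replicate 3, 0.10 without SOR replicate 1 and 0.12 without SOR replicate 4, and it was below 0 without homecage replicate 1 (-0.00097), SOR replicate 2 (-0.0075) or SOR replicate 3 (-0.0017).

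Ratios within a mouse do not depend on how libraries are scaled, so that each inhibitor was also divided by each subunit of the same mouse. Of the 25 ratios, the 5 with *Nfkbia* were higher in SOR mice with no overlap, and the 20 others overlapped. The 5 share the *Nfkbia* values and are not independent of each other. The log2 ratio of *Nfkbia* to *Rela* CPM was -0.20 to -0.080 in homecage and 0.42 to 0.80 in SOR mice, a gap wider than the range of either group. To *Nfkb1*, the subunit with the largest log2 fold change, the log2 ratio went from between -1.01 and -0.82 in homecage to between -0.42 and -0.15 in SOR mice. The mean shift was 0.76 against *Rela*, 0.61 against *Nfkb1*, 0.60 against *Rel*, 0.82 against *Nfkb2* and 0.92 against *Relb*. The share of all genes tested whose ratio was higher without overlap was 1.14% for *Rela*, 0.372% for *Nfkb1*, 0.332% for *Rel*, 0.518% for *Nfkb2* and 1.93% for *Relb*.

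**Figure D3:**
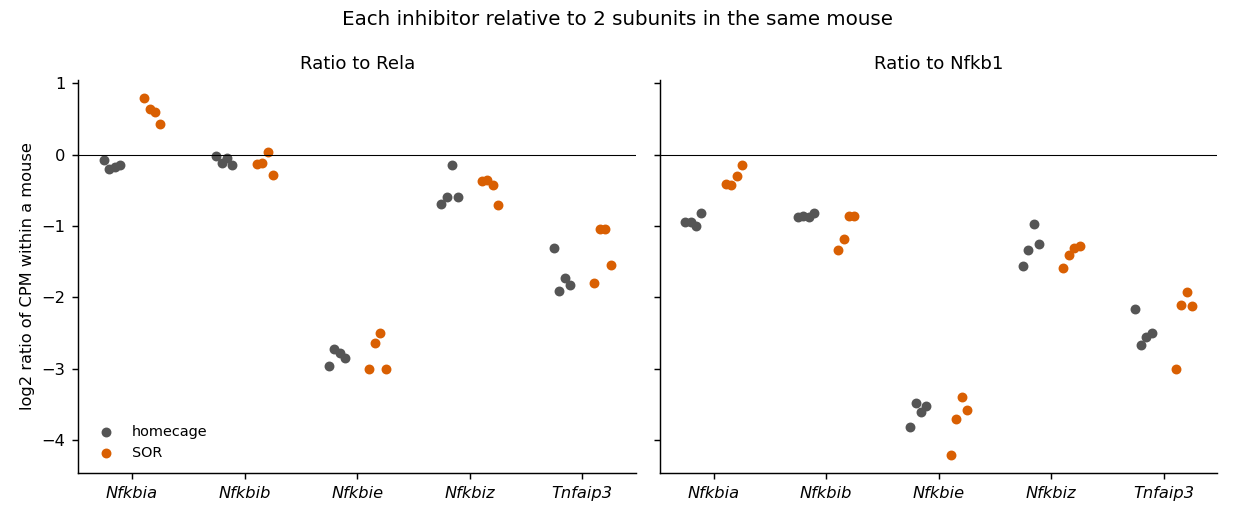
Log2 ratio of each inhibitor's CPM to that of *Rela* (left) and *Nfkb1* (right) in the same mouse, with homecage mice in grey and SOR mice in orange (points, n = 4 per group). For *Nfkbia* the SOR points lie above all homecage points in both panels, and for the other 4 inhibitors the groups overlap.

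For a comparison of levels between genes, CPM were divided by the length of all annotated exons in kb. In homecage mice *Nfkbia* had the highest level per length, 6.83 ± 0.286 CPM per kb (SD, n = 4), followed by *Nfkbib* with 5.32 ± 0.0466, *Rela* with 3.98 ± 0.160, *Nfkb1* with 1.74 ± 0.0384 and *Nfkbiz* with 1.73 ± 0.285. *Relb* had 0.989 ± 0.0683, *Nfkbie* 0.568 ± 0.0492, *Tnfaip3* 0.528 ± 0.0908, *Rel* 0.420 ± 0.0484 and *Nfkb2* 0.287 ± 0.0404 CPM per kb. Neighbours in this order overlapped between *Nfkb1* and *Nfkbiz*, between *Nfkbie* and *Tnfaip3* and between *Tnfaip3* and *Rel*, and the other neighbours did not. In SOR mice *Nfkbia* reached 11.9 ± 1.18 CPM per kb, and the order was the same except that *Tnfaip3* and *Nfkbie* changed places, with overlapping values. *Nfkbia* took the largest share of the 3 classical IkB genes on this scale, which rests on the division by length: in CPM the homecage means were 11 for *Nfkbia*, 11.5 for *Nfkbib* and 1.73 for *Nfkbie*. Its share of their summed CPM per kb was 53.7% ± 0.946 in homecage and 66.8% ± 2.53 in SOR mice (SD, n = 4 per group), from 52.7% to 54.8% and from 63.7% to 69.9%. The sum of these 3 genes divided by the sum of the 5 subunits was 1.72 ± 0.0344 in homecage and 2.30 ± 0.119 in SOR mice, whereas the summed subunits had 7.41 ± 0.186 and 7.75 ± 0.615 CPM per kb. The length counts exons of every annotated transcript, so that genes with rarely used long exons are set too low. *Nfkb1* had the greatest length, 12061 bases over 10 transcripts. Without the division by length it had the highest homecage mean of the genes described here, 20.92 CPM. The ratio of the sums therefore also rests on this division. Its size does not show whether inhibitor transcripts outnumber subunit transcripts.

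**Figure D4:**
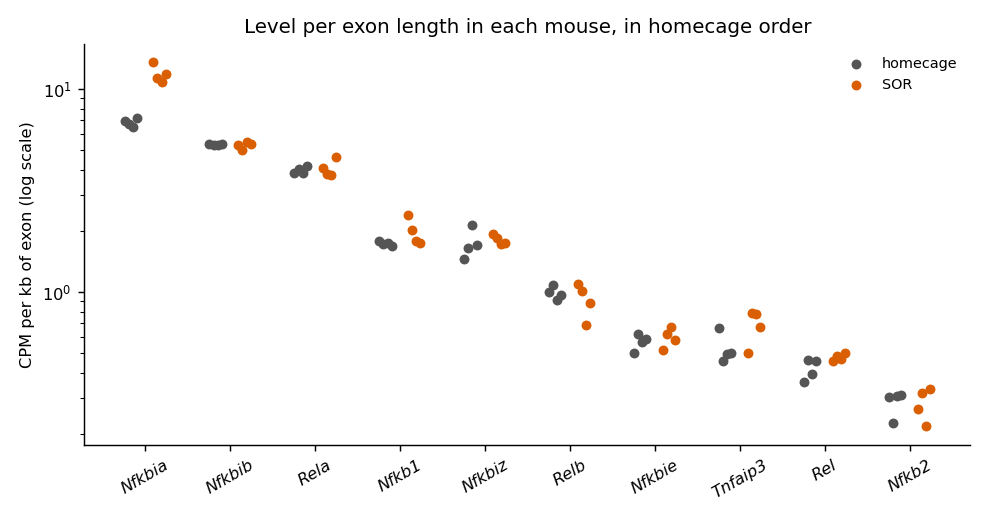
CPM per kb of exon (log axis) of the 10 genes in each homecage (grey) and SOR mouse (orange), ordered by the homecage mean; points are mice, n = 4 per group. *Nfkbia* is highest in both groups, at 6.83 CPM per kb in homecage and 11.9 in SOR mice on average, and *Nfkb2* is lowest.

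The remaining pathway was read through 5 lists with 116 genes other than the 10, of which 94 passed the filter on low counts. None passed the test at an adjusted p under 0.05 in edgeR's quasi-likelihood test, 11 had an unadjusted p under 0.05, 5 of them higher (11.7%, beside 10.1% of all genes), and the median log2 fold change was -0.013. Other tools passed between 0 and 6 of them, with DESeq2 at 6 (*Fas*, *Gadd45b*, *Il1r1*, *N4bp1*, *Tab1* and *Tlr9*, of which *Il1r1* and *Tlr9* are named after their values were seen). DESeq2 also passed more of all 22018 genes tested, 435 against 68 in the main fit. Further inhibitors of the pathway had 0 of 18 tested genes past the threshold and a median of -0.026. *N4bp1*, a ubiquitin-binding suppressor of NF-kB signalling, had 58.8 to 60.3 CPM in homecage and 64.7 to 67.1 CPM in SOR mice. Its groups did not overlap, as for 1 of the 18 genes and 6.94% of all genes tested. Its log2 fold change was only 0.14 (adjusted p = 0.161). The atypical IkB gene *Nfkbid* had a log2 fold change of -0.16 (adjusted p = 0.807), and *Nlrx1* one of -0.19 (adjusted p = 0.832). *Bcl3* and *Tnip3* had at most 13.7 counts in any library and were not tested.

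Kinases of the pathway, among them the IkB kinase genes *Chuk*, *Ikbkb* and *Ikbkg*, had 0 of 15 past the threshold and a median log2 fold change of -0.014. *Tab1* encodes an adaptor of the kinase TAK1 upstream of the IkB kinases. It had 22.3 to 26.6 CPM in homecage and 17.7 to 21.2 CPM in SOR mice, without overlap. Its log2 fold change was -0.31 (adjusted p = 0.186 from the edgeR test). Groups without overlap were seen for 1 of the 15 genes, beside 6.94% of all genes tested. *Map3k8* and *Map3k14*, the latter the kinase of the noncanonical pathway, had log2 fold changes of 0.40 (adjusted p = 0.537) and 0.34 (adjusted p = 0.631), each with overlapping groups. Adaptors had 0 of 24 past the threshold and a median of 0.0036. Of these 24, *Myd88* alone had groups without overlap, beside 6.94% of all genes tested. Its highest homecage value was 3.327 CPM and its lowest SOR value 3.333 CPM. Among adaptors whose mean reached 1 CPM, the largest fold changes were those of *Myd88*, which serves Toll-like and interleukin-1 receptors, with a log2 fold change of 0.32 (adjusted p = 0.517), *Ticam1* with 0.23 (adjusted p = 0.592) and *Malt1* with -0.17 (adjusted p = 0.751).

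Ligands and receptors had 0 of 16 tested genes past the threshold, with a median log2 fold change of -0.078. Of the 16, 5 had an unadjusted p under 0.05 in edgeR's quasi-likelihood test, beside 10.1% of all genes tested. Of these 5, *Il1r1* and *Tlr4* were higher, and *Il1a*, *Tlr9* and *Tnfrsf11a* were lower. *Tlr9* had the lowest adjusted p of all 94 pathway genes, 0.125 (log2 fold change -0.92). The other lists had 1 of 18 further inhibitors, 2 of 15 kinases, 0 of 24 adaptors and 3 of 25 targets at that unadjusted p. *Tlr4*, the receptor for bacterial lipopolysaccharide, had 1.25 to 1.71 CPM in homecage and 1.77 to 2.64 CPM in SOR mice (log2 fold change 0.60, adjusted p = 0.233 from the edgeR test). Its groups did not overlap. Of the 16 genes, 1 was higher and 2 were lower without overlap, beside 2.98% and 3.96% of all genes tested. *Tnfsf13b* and *Tnfrsf11a* had log2 fold changes of -0.60 (adjusted p = 0.596) and -0.43 (adjusted p = 0.4). The inducing cytokines themselves were barely present. *Tnf* had 2.84 to 3.14 counts per library in homecage and 0 to 6.20 in SOR mice, *Il1b* had 4.47 to 18.4 and 0.970 to 13.2 counts, and *Il6* had 0 to 13.5 and 1.25 to 4.94 counts. All 3 were too low to be tested, and at this depth no difference was detectable.

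Known NF-kB target genes had 25 of 40 tested, 0 of them past the threshold, and a median log2 fold change of -0.046. Of the 25, 2 were higher and 1 was lower without overlap, beside 2.98% and 3.96% of all genes tested. *Fas*, a death receptor, had 0.553 to 0.890 CPM in homecage and 0.998 to 1.83 CPM in SOR mice, without overlap (log2 fold change 0.995, adjusted p = 0.129 from the edgeR test). *Gadd45b*, a stress and activity-induced gene, had 4.71 to 5.74 and 6.16 to 8.78 CPM, also without overlap (log2 fold change 0.46, adjusted p = 0.273). *Irf7*, an interferon-response factor, had 1.45 to 3.23 and 1.03 to 1.43 CPM, again without overlap (log2 fold change -0.69, adjusted p = 0.4). The chemokine genes *Ccl2*, *Ccl4*, *Ccl5*, *Cxcl1*, *Cxcl2* and *Cxcl9* and the adhesion gene *Sele* were among the 15 targets too low to be tested, none of which exceeded 23.5 counts in a library. *Cxcl2* had 0 counts in all 8 libraries, which allows up to 0.0589 CPM at 3 counts in the shallowest library and covers counting error only.

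*Nfkbia* is also a textbook target of the glucocorticoid receptor, so that a list of 16 further genes induced by glucocorticoids in many tissues was set beside the pathway. Of these, 4 rose past the threshold and 0 fell, beside 0.273% and 0.0363% of all genes, and the median log2 fold change was 0.50. The list was drawn up with earlier results of these data known, in which *Sgk1*, *Plin4*, *Hif3a* and *Cdkn1a* had already been seen, and its count is no independent evidence. The genes past the threshold were *Plin4* with a log2 fold change of 1.6 (adjusted p = 0.00106), *Sgk1* with 1.35 (adjusted p = 3.78e-04), *Tsc22d3* with 0.63 (adjusted p = 0.00553) and *Errfi1* with 0.56 (adjusted p = 0.00477, all from the edgeR test). *Hif3a*, *Cdkn1a* and *Per1* had log2 fold changes of 1.87 (adjusted p = 0.0775), 0.80 (adjusted p = 0.109) and 0.62 (adjusted p = 0.176). *Fkbp5*, a standard target of the receptor that is named after its values were seen, was the 1 gene of the 16 with a fold change below 0, and its means were 37.1 CPM for homecage and 36.4 CPM for SOR mice (log2 fold change -0.026, adjusted p = 0.953 from the edgeR test). The part of glucocorticoid signalling in the *Nfkbia* value was not tested.

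**Figure D5:**
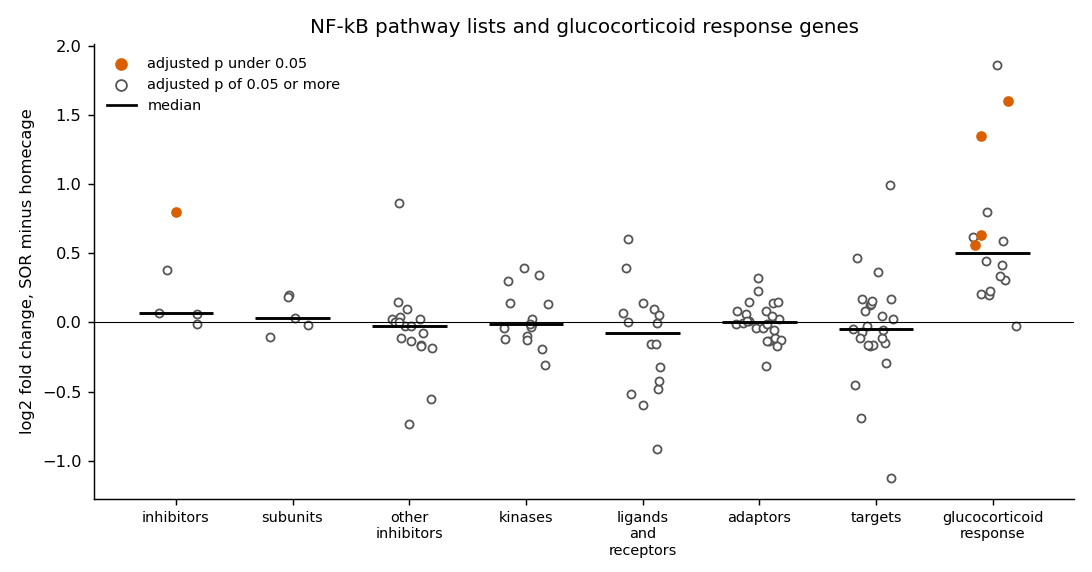
Log2 fold change of SOR minus homecage for every tested gene of the inhibitors, the subunits, 5 pathway lists and the glucocorticoid response list; points are genes, filled points have an adjusted p under 0.05 in the edgeR test, and black lines are medians. Only *Nfkbia* is filled among the NF-kB lists, whose medians lie between -0.078 and 0.069, and 4 genes are filled among the glucocorticoid response genes, whose median is 0.50.

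The genes whose profile over the 8 mice was most like that of *Nfkbia* were found by the root mean square difference of log2 CPM, each gene centred on its mean, among 16351 genes whose mean reached 1 CPM. The nearest was *Ccdc117* with a difference of 0.0665, from 12.4 to 13.4 CPM in homecage and from 19.2 to 24.3 CPM in SOR mice. It was followed by *Tent5a* (0.0848), *Hey2*, which encodes a transcriptional repressor downstream of Notch (0.0906), the clock gene *Per2* (0.102) and *Gm37978* (0.122). Their log2 fold changes were 0.71, 0.71, 0.91, 0.80 and 0.81, values close to that of *Nfkbia* because the genes were chosen for the same profile over the mice, and they are given as a description with no test. None of the other 9 genes described here and no gene of the 5 pathway lists was among them. With only 5 of 16351 genes kept, this absence says nothing about how the pathway moved with *Nfkbia*.

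Markers of other cell types were read by their summed level. The 12 microglia markers summed to 346 to 399 CPM in homecage and 338 to 381 CPM in SOR mice, and the 10 endothelial markers to 182 to 218 and 193 to 201 CPM. Among 10 markers of blood leukocytes, 2 were abundant enough to be tested, *Ly6g* was at 0 in every library, and the sum stayed between 0.767 and 1.58 CPM in homecage and between 0.995 and 1.55 CPM in SOR mice. Astrocyte markers had 2181 to 2267 and 2081 to 2309 CPM, oligodendrocyte markers 5248 to 5722 and 4296 to 5605 CPM, and red blood cell markers 98.6 to 127 and 115 to 184 CPM. No marker of any of the 8 lists passed the adjusted p threshold (edgeR's quasi-likelihood test), and 9 of 65 tested had an unadjusted p under 0.05 (13.8%, beside 10.1% of all genes). The highest median log2 fold changes were those of the choroid plexus, 1.32, and red blood cell markers, 0.37. The lowest was that of the 8 oligodendrocyte markers, -0.17. Of these, 0 had a log2 fold change above 0, and 3 had an unadjusted p under 0.05 in the same test.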

How the data were processed

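Bulk RNA-seq of dorsal hippocampus was analysed from 4 homecage and 4 SOR mice. The authors aligned reads with STAR within bcbio-nextgen, and the deposited values are estimated counts per gene, summarized with tximport and not normalized (52.6% are not whole numbers). The methods name featureCounts, and the quantifier behind tximport is not given in the sources used here. The labels name polyA RNA, while their protocol names a Ribo-Zero kit. The labels give mm10. Spatial, single-nucleus and ATAC samples were not analysed here.

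After rounding, genes were filtered with filterByExpr and libraries were scaled with upper-quartile factors. SOR was compared with homecage with edgeR 4.0.16 in R 4.3.3 by its quasi-likelihood F test, and p-values were adjusted by Benjamini-Hochberg over 22018 genes. A gene passed at an adjusted p under 0.05. Standard errors and 95% intervals were derived from the F statistic of this fit. CPM are relative to the scaled library sizes. Positions, types and exon lengths are those of GENCODE M21 (GRCm38), and promoters those of RefSeq (GRCm38.p6). For each member an exact permutation test, two-sided, was run over 70 assignments. The study removed unwanted variation with RUVs, with a number of factors that is not given, so that fits with 1, 2 and 3 factors were alternatives, made with an own implementation with all genes as controls. The others were scaling by TMM, RLE or library size, a looser filter (over 5 counts in 2 or more samples) or none at all, edgeR's likelihood ratio test, DESeq2 1.42.0, limma-voom (limma 3.58.1), the replicate number as a block, unrounded counts, a test of whether the change exceeds 1.4-fold, and leaving out samples singly. The fit was tested on simulated data with known changes.

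The members and lists were chosen with earlier results of these data known. Named are all members, of each pathway list the genes past the threshold and up to 3 with the largest fold change at a mean of at least 1 CPM, and the 5 genes most like a member that passed. Replicates of a group differed by more than counting error (chi-square per degree of freedom 12.1 to 54.2). Samples with the same replicate number were not more alike than others: the correlation of deviations from group means was -0.104 to 0.173 for the same number and -0.342 to 0.251 otherwise. So few correlations cannot exclude a paired design. Nothing in the labels says that samples of a group are separate mice, and p-values measure the spread between these samples. Python 3.11.15 with pandas 2.3.3, numpy 2.4.6 and scipy 1.17.1 served for the tables.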

Additional observations from a re-analysis of the deposited data

Results flagged for a closer look

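In homecage replicate 2, *Nfkb2* had 1.04 CPM, far from the 1.399 to 1.42 CPM of the other homecage mice. The gap took up 0.949 of the group's range, above Dixon's 95% critical value for 4 samples. Chance flags about 1 in 20 groups, and 20 groups were examined, those of 10 genes in 2 conditions. Without that sample the log2 fold change of *Nfkb2* was -0.12 in place of -0.022.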

How the results depend on the processing

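*Nfkbia* passed the adjusted p threshold in the 13 alternatives with all samples, with log2 fold changes from 0.77 to 0.82, and in the 8 fits without 1 sample, from 0.73 to 0.84 with adjusted p from 0.00252 to 0.0168 (edgeR). In each of these fits it was the 1 gene of the 10 past the threshold. In the test of whether the change exceeds 1.4-fold, with the same value of 0.80, it did not pass (adjusted p = 0.454). The inhibitor minus subunit median lay between 0.034 and 0.071 with all samples and between -0.0075 and 0.16 without 1 sample, shifts under the per-mouse SD of 0.164. Pathway genes past the threshold numbered 2 with the likelihood ratio test and with 1 or 2 RUVs factors, 4 with 3 factors and 6 with DESeq2, and 0 in the other alternatives; the cause was not tested. *Nfkbib* turned positive with TMM (0.0096), RLE (0.011) and DESeq2 (0.012). Without 1 sample, signs turned for *Nfkbib* (-0.028 to 0.017), *Nfkbiz* (-0.011 to 0.18), *Nfkb2* (-0.12 to 0.087), *Rela* (-0.036 to 0.068) and *Relb* (-0.20 to 0.014), none of which passed. The replicate block gave *Nfkbia* a log2 fold change of 0.79 (adjusted p = 0.0175) and changed no call among the 10 genes. Over all genes, 68 passed, against 214 with the likelihood ratio test, 435 with DESeq2, 305, 500 and 508 with 1, 2 and 3 RUVs factors, 40 with the block, 8 in the 1.4-fold test and 30 to 55 without 1 sample. Counts of 65.3 to 142 per library limit what can be said of *Nfkb2* and *Nfkbie*.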
